A study of Mus musculus with 8 samples.

Results

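The first step of reprogramming examined here ran from mouse embryonic fibroblasts (MEFs) to the same kind of cells at day 5 after infection with OSKM, the retroviral set of Oct4 (Pou5f1), Sox2, Klf4 and c-Myc. Open chromatin was mapped by ATAC-seq, which reads out the DNA that a transposase can reach in the nucleus, and the sites were the peaks listed for each group, compared by their positions with an overlap of 1 bp. The MEF list held 56514 peaks and the day 5 list 36219, which makes 92733 of the 176445 peaks and 4 of the 8 libraries of the series. The other lists were from OSKM day 10 and from embryonic stem cells (ESCs), and they served only to follow the sites of the first 5 days. Both groups were wildtype cells of the C57BL/6J-OG2 strain, which carries a GFP reporter driven by Oct4 regulatory sequence. The MEFs came from midgestation embryos, received no virus and were kept in serum medium. The day 5 cells had been infected with pMXs retroviruses for OSKM and with a FLAG control vector, and were then grown in ESC medium with LIF and vitamin C. Virus, factors, medium and vitamin C changed together, so their parts in any difference cannot be told apart. The labels call the day 5 cells intermediate pluripotent reprogrammed cells and mention no sorting of them. Each group had 2 libraries merged in 1 list, so no spread between libraries could be measured, read depth is unknown, and every interval below is a 95% interval for counting error over peaks or genes, which are not replicates of a condition. A difference between shares was called where its Newcombe interval left out 0.

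A MEF peak with no day 5 peak was counted as lost, a MEF or day 5 peak that overlapped the other list as kept, and a day 5 peak with no MEF peak as gained. Accessible sites far from genes are often enhancers, which differ greatly between cell types, while promoters of widely expressed genes are open in most cells. In fibroblasts many enhancers carry binding sites of AP-1, the dimers of FOS and JUN proteins that respond to growth and stress signals, and of TEAD factors, the DNA-binding partners of YAP and TAZ. OCT4 binds the octamer, SOX2 binds a SOX element that often lies next to it, and KLF4 binds GC-rich elements shared with other KLF and SP factors. Entry into reprogramming is also known for a mesenchymal-to-epithelial change, in which fibroblast genes are turned down and adhesion genes such as Cdh1 are turned up.

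Sequences of 14 sites near listed genes are shown first, because lost, kept and gained sites differed in how often they held such short elements. Each is the central 200 bp of a peak on the + strand of GRCm38 (mm10), read from the reference genome, and no printed window overlaps an exon. For each kind of site the highest-scoring peak per listed gene was taken. The first 4, from lost MEF peaks, held an AP-1 match, which was TGACTCA or TGAGTCA on either strand and is in capitals. They lay between genes, 40.8 kb from a start site of Mycn, a MYC family member, 82.8 kb from Thbs2, which encodes a matrix glycoprotein, 75.7 kb from Col5a1, which encodes a fibrillar collagen chain, and 45.7 kb from Fosl2, itself an AP-1 subunit.
Mycn, chr12:12982962-12983161: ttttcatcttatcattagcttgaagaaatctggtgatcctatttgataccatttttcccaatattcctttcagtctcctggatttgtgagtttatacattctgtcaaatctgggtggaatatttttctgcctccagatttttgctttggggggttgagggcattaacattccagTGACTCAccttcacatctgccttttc
Thbs2, chr17:14610888-14611087: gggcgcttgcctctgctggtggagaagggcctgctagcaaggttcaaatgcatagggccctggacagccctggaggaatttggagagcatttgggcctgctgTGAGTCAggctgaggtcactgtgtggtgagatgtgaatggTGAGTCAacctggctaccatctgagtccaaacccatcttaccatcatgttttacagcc
Col5a1, chr2:27810176-27810375: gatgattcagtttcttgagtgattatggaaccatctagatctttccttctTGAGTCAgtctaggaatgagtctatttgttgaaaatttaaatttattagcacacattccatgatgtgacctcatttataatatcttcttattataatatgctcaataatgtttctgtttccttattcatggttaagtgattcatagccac
Fosl2, chr5:32089525-32089724: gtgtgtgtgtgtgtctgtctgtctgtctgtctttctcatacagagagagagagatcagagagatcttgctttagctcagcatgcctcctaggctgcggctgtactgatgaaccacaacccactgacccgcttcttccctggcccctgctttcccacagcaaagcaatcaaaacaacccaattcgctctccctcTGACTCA

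The Thbs2 window held 2 matches, and none of these 4 peaks overlapped a day 10 peak. The Mycn peak overlapped an ESC peak, whereas the other 3 did not. The next 4 windows were from gained day 5 peaks with an octamer match, ATGCAAAT or its reverse complement, again in capitals. Among them 1 lay in an intron 14.9 kb from a start site of Runx1 and 1 in an intron 13.3 kb from Tgfbr1, which encodes a TGF-beta receptor. Another lay 1.80 kb upstream of Meox2, a mesodermal homeobox gene, in an intron of another annotated gene. The window near Lum, which encodes the matrix proteoglycan lumican, lay between genes 16.7 kb from its start site.
Runx1, chr16:92680111-92680310: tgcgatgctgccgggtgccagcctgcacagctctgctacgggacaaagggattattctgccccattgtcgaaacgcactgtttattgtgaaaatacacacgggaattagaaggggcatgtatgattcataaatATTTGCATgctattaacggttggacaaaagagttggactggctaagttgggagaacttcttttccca
Tgfbr1, chr4:47399760-47399959: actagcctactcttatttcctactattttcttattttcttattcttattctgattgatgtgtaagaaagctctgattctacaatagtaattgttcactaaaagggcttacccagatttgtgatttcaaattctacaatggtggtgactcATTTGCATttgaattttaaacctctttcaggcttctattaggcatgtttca
Lum, chr10:97547988-97548187: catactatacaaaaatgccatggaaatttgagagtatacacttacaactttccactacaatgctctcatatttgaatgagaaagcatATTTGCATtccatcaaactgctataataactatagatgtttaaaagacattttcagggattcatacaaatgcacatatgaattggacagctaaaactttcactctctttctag
Meox2, chr12:37106305-37106504: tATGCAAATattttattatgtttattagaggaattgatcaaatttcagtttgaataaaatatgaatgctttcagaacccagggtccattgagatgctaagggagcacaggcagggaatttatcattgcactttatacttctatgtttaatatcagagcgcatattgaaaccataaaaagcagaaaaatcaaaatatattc

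The Runx1 and Tgfbr1 windows also held a SOX match (CCATTGT or CCTTTGT), which is not in capitals. The Tgfbr1 window held an AP-1 match (TGACTCA) as well, whose last base is the first base of the octamer. The Runx1, Tgfbr1 and Meox2 peaks overlapped day 10 peaks, none of the 4 overlapped an ESC peak, and all 4 genes belong to lists of fibroblast, matrix or TGF-beta genes. Gained sites with a KLF match (CCACACCC, CCACGCCC, CCCCACCC or CCCCGCCC on either strand, in capitals) were found 32.3 kb from Epcam, an epithelial adhesion gene, 19.7 kb from Fn1, which encodes fibronectin, 15.4 kb from Erg, an endothelial ETS factor, and 28.5 kb from Wwtr1, which encodes TAZ.
Epcam, chr17:87603058-87603257: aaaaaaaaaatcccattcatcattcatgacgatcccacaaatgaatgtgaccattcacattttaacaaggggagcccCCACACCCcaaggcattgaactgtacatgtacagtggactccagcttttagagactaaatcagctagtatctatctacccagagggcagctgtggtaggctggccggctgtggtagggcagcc
Fn1, chr1:71673304-71673503: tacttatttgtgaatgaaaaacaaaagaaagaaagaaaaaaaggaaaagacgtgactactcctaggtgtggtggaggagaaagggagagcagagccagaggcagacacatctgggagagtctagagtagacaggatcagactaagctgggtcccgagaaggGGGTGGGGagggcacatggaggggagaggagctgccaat
Erg, chr16:95602254-95602453: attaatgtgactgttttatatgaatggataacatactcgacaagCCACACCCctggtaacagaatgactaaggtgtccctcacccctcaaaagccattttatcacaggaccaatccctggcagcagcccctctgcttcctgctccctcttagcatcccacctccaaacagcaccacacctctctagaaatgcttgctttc
Wwtr1, chr3:57604576-57604775: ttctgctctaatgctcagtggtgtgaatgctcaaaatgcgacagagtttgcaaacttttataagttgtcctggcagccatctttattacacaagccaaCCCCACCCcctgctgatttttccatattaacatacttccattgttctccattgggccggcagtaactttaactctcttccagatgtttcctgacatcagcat

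Those 4 peaks lay between genes and overlapped day 10 peaks, and the peaks near Fn1 and Wwtr1 also overlapped ESC peaks. For contrast, kept peaks with a KLF match are shown at the promoters of Lmna, which encodes the nuclear lamins A and C, and of Fosb, an AP-1 subunit.
Lmna, chr3:88492877-88493076: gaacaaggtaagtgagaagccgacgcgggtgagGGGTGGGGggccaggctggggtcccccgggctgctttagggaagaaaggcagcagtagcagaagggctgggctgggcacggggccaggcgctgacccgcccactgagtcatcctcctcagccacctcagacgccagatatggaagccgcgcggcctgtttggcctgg
Fosb, chr7:19310193-19310392: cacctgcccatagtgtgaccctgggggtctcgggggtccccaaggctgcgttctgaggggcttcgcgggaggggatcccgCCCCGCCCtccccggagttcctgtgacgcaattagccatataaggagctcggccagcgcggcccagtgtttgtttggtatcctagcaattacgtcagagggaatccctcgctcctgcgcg

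The GC content of the Lmna and Fosb windows was 67.0% and 64.0%. It was 43.0% to 49.5% in the 4 gained KLF windows and 30.5% to 46.0% in the 4 octamer windows. The windows were picked by motif, and the kept ones also by promoter position, so this contrast follows in part from the choice. The Lmna window also held an AP-1 match (TGAGTCA), which is not in capitals. The Lmna and Fosb peaks both overlapped a day 10 peak, and the Lmna peak an ESC peak. The Fosb peak itself overlapped no ESC peak, although an ESC peak lay within 1 kb of a Fosb start site. A match is only a run of letters and does not show that a factor bound there. Over all 32851 RefSeq promoter windows of 300 bp around a start site, an AP-1 match was present in 5.20%, a TEAD match in 4.64%, a RUNX match in 2.52%, a CTCF match in 0.557%, an octamer in 1.74%, a SOX match in 9.28%, a KLF match in 29.7% and an ESRRB match in 0.423%.

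Both lists changed in large part between MEFs and day 5. Of the MEF peaks, 36800 were lost, which is 65.1% (Wilson interval 64.7% to 65.5%), and of the day 5 peaks 16416 were gained, which is 45.3% (44.8% to 45.8%). Since these classes are the rule itself, the shares are a description. They also depend on the sizes of the lists, since with the MEF list reduced to its highest-scoring peaks, as many as at day 5, 52.7% were lost and 52.4% gained. Lost peaks covered 24.3 Mb and kept MEF peaks 22.6 Mb, and gained peaks covered 9.17 Mb against 16.0 Mb of kept day 5 peaks. Lost and gained sites were the smaller ones, with median widths of 579 bp and 495 bp, whereas kept peaks had medians of 1053 bp in MEFs and 724 bp at day 5. A kept MEF peak was covered by day 5 peaks over a median of 68.5% of its length, whereas the median kept day 5 peak lay wholly inside MEF peaks. Few calls rested on peaks that just missed each other, since 0.813% of lost and 1.83% of gained sites had a peak of the other list under 400 bp away. The median gap to the nearest peak of the other list was 19.8 kb for lost and 15.3 kb for gained sites.

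Lost and gained sites also differed from kept sites in base composition. The central 200 bp had a mean GC content of 46.1% in lost and 40.7% in gained sites, against 58.0% and 58.1% in kept sites of either list. CpG pairs per window averaged 2.95 in lost and 1.67 in gained sites, against 11.6 and 11.8. Repeat-masked bases made up 14.0% of lost and 19.99% of gained peaks, compared with 9.89% and 8.85% of kept peaks in MEFs and at day 5.

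Promoters were kept and sites far from genes were exchanged. A peak within 1 kb of a transcription start was called a promoter peak, and one more than 5 kb away a distal peak. Promoter peaks made up 12.1% of lost sites against 64.1% of kept MEF sites, a difference of -52.0 percentage points (-52.7 to -51.2). They made up 6.43% of gained sites against 63.6% of kept day 5 sites, a difference of -57.1 points (-57.9 to -56.4). Both differences had the same direction on all 20 chromosomes compared. Counted by position, 26.1% of MEF promoter peaks were lost, compared with 82.7% of distal MEF peaks and 86.4% of those 50 kb or more from a start site. Among day 5 peaks, 7.74% at promoters, 69.9% of the distal ones and 81.5% of those 50 kb or more away were gained. Distal peaks were 71.1% of lost and 78.1% of gained sites, whereas they were 27.8% and 27.9% of the kept sites. Introns held the midpoint of 51.1% of lost and 48.8% of gained sites, and intergenic sequence that of 41.9% and 46.5%.

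The score given by the peak caller, which reflects how far a peak rises above its background, was related to loss. In the highest-scoring decile of MEF peaks 14.3% were lost, and in the lowest-scoring decile 92.1%. At promoters these shares were 1.81% and 88.1%, and at distal sites 50.4% and 92.5%. Thus even the strongest distal MEF peaks were lost in about equal numbers as they were kept, while nearly all of the strongest promoter peaks were kept. The relation was weaker for gains, with 31.0% of the highest-scoring and 56.6% of the lowest-scoring decile of day 5 peaks gained. For distal day 5 peaks the gained share stayed between 67.7% and 72.4% in all deciles, so that strong and weak distal peaks were gained at like shares. A weak peak can also be missed in the other list, and the part of peak strength in the losses was not tested.

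**Figure D1:**
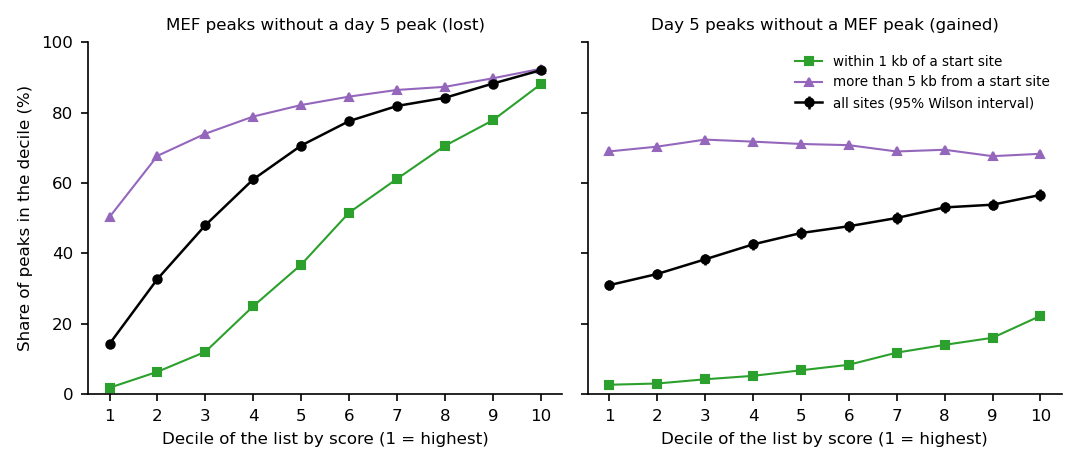
Share of MEF peaks lost by day 5 (left) and of day 5 peaks gained since MEFs (right), in %, by decile of each list from the highest (1) to the lowest score (10). Black points with 95% Wilson intervals are all sites, green squares promoter peaks and purple triangles distal peaks; loss climbed from 14.3% to 92.1% over the deciles, whereas the gained share of distal peaks stayed between 67.7% and 72.4%.

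Loss and gain were found on every chromosome. The lost share ran from 58.2% on chromosome X to 70.1% on chromosome 18, and the gained share from 34.4% on chromosome 11 to 53.4% on chromosome 14, leaving out chromosome Y with its 8 MEF and 7 day 5 peaks.

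Distal lost sites were richest in AP-1 matches, and distal gained sites in SOX and octamer matches. An AP-1 match lay in the central 200 bp of 23.5% of lost distal sites, against 3.13% of windows of the same size 1 kb away. It lay in 18.9% of kept distal MEF sites, so that lost sites were higher by 4.54 percentage points (3.36 to 5.68), and in 18 of 20 chromosomes. Gained distal sites held one in 7.38% of windows (flanks 3.35%), compared with 17.5% of kept distal day 5 sites, a difference of -10.1 points (-11.2 to -9.04). The AP-1 share thus fell by far more from kept to gained sites than it differed between lost and kept ones. When the whole peak was searched, 45.5% of lost and 44.4% of kept distal MEF sites held a match, and the difference of 1.14 points was no longer called. TEAD matches (ACATTCCA, ACATTCCT, GCATTCCA or GCATTCCT) followed AP-1, with 9.14% of lost and 7.21% of kept distal MEF sites, a difference of 1.92 points (1.13 to 2.67), and with 5.15% of gained and 6.86% of kept distal day 5 sites. The TEAD difference between lost and kept sites was not called in whole peaks (0.180 points, -1.06 to 1.39), nor in windows below 40% GC (1.22 points) or of 40 to 50% GC (1.255 points), classes chosen after seeing the data.

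SOX matches went the other way. They lay in 17.5% of gained distal sites (flanks 7.44%) and in 11.4% of kept ones, a difference of 6.09 points (5.01 to 7.14) with the same direction on 20 of 20 chromosomes. Below 40% GC, where 6563 of the 12817 gained distal sites lay, the difference was 2.03 points (-0.29 to 4.14) and was not called, and in the other GC classes it was 7.66 and 8.02 points. In lost distal sites they were found in 6.37% of windows, below their flanks at 7.34% and below the 9.52% of kept MEF sites. Octamer matches were rarer but followed the same order, with 4.14% of gained distal sites (flanks 1.56%), 1.65% of kept day 5 sites and 1.19% of lost sites. The gained sites exceeded the kept ones by 2.50 points (2.00 to 2.97), on 19 of 20 chromosomes. The combined SOX-OCT element, spelled out as 1 joined motif, was found in 6 of 12817 gained and 1 of 5524 kept distal day 5 sites, too few for a comparison. At least 1 of the octamer, SOX and KLF matches was present in 29.4% of gained against 24.2% of kept distal day 5 sites. In lost distal sites the share was 12.7%, against 21.005% of kept distal MEF sites. No octamer, SOX, KLF or AP-1 match was present in 65.5% of gained and 66.3% of lost distal sites. Thus most distal sites of either kind were not marked by any of the 4 motifs in their central window.

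**Figure D2:**
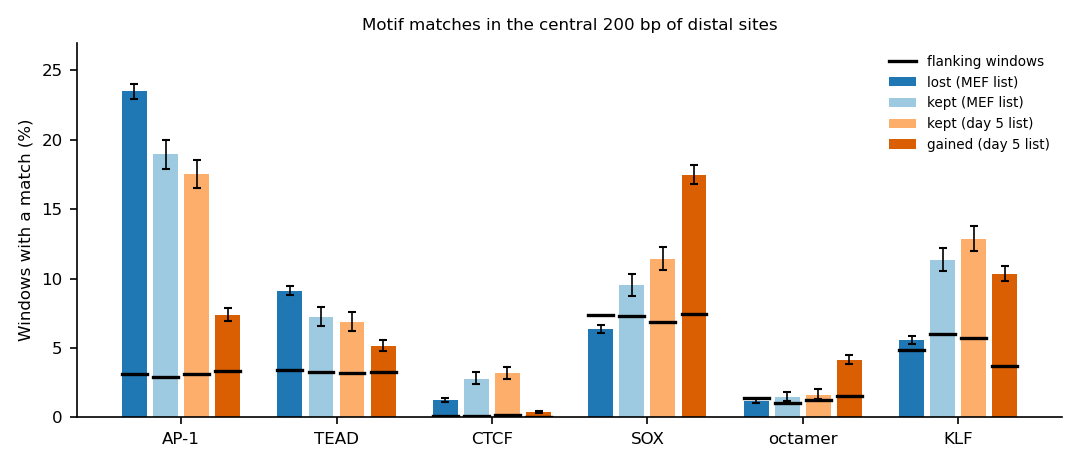
Share of distal sites, in %, with a motif match in the central 200 bp, for lost, kept and gained sites. Bars carry 95% Wilson intervals and black ticks give flanking windows 1 kb away; AP-1 was highest in lost sites at 23.5%, and SOX was highest in gained sites at 17.5%.

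The matches were centred on the peaks. In 50 bp bins along the distal lost sites, AP-1 was matched in 7.02% of sites in the bin just right of the midpoint and in 0.875% in the outermost bin at about 1 kb. For gained sites the same bins gave 1.90% and 0.710% for AP-1, 5.06% and 1.97% for SOX, 1.05% and 0.398% for the octamer and 2.96% and 0.819% for KLF. Lost sites showed no such rise for SOX, with 1.64% at the centre and 1.72% at the edge, or for the octamer, with 0.279% and 0.317%.

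**Figure D3:**
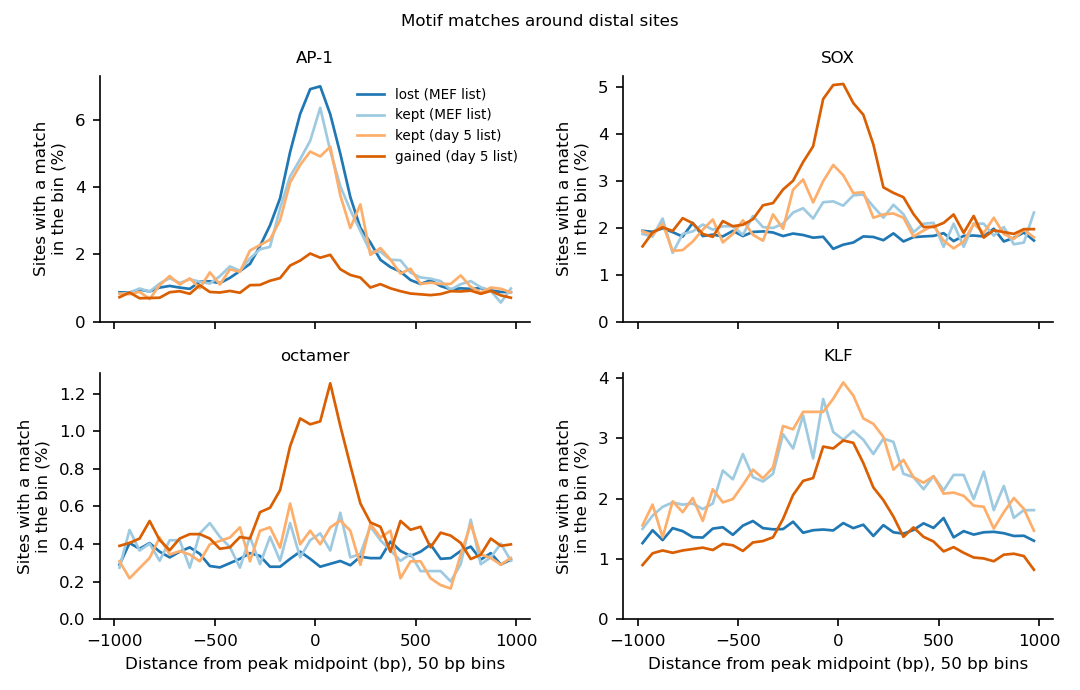
Share of distal sites, in %, with a motif match in each 50 bp bin, against distance from the peak midpoint in bp, for AP-1, SOX, octamer and KLF. Lines are lost, kept and gained sites; AP-1 rose at the centre of lost sites to 7.02%, while SOX rose at the centre of gained sites to 5.06% and not in lost sites.

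KLF matches depended on base composition. They lay in 5.57% of lost distal sites (flanks 4.87%), close to their flanks, and in 11.4% of kept distal MEF sites (flanks 6.00%), a difference of -5.79 points. Gained distal sites held one in 10.4% (flanks 3.72%) and kept day 5 sites in 12.9% (flanks 5.69%), a difference of -2.51 points (-3.55 to -1.50). Within GC classes, an alternative chosen after seeing the data, that direction was turned. At a GC content of 40 to 50%, KLF matched 13.7% of gained and 9.34% of kept sites, a difference of 4.38 points (2.83 to 5.85), and at 50% or more 27.6% and 21.7%, a difference of 5.91 points (2.85 to 9.01). Below 40% the difference was 1.07 points (-0.29 to 2.16). For lost sites the KLF share remained below that of kept sites in each of the 3 GC classes. The AP-1 excess of lost sites was found at a GC content of 40% and above and not below it, where the difference was -0.904 points (-3.74 to 1.75), and in all 3 score classes of the list, at 5.30 to 8.77 points.

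Matches for CTCF, the insulator protein that holds chromatin loops, were more frequent in kept than in lost or gained distal sites. They lay in 2.78% of kept and 1.23% of lost distal MEF sites, a difference of -1.54 points (-2.03 to -1.11), and in 3.17% of kept and 0.375% of gained day 5 sites. Of distal MEF sites with a CTCF match 68.0% were lost, compared with 82.9% of those without. Of distal day 5 sites with a CTCF match 21.5% were gained, compared with 70.5% without, the lowest gained share of the motifs given here. With an octamer match the gained share was 85.4% against 69.3% without, and with a SOX match 78.1% against 68.4%, while with an AP-1 match it was 49.5% against 72.3%.

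Promoter peaks resembled distal sites in some motifs and differed from them in others. An AP-1 match lay in 13.8% of lost (flanks 3.20%) and 2.37% of kept promoter peaks (flanks 3.27%) in MEFs. Of MEF promoter peaks with an AP-1 match 67.4% were lost, against 23.8% of those without. SOX matches lay in 16.2% of gained (flanks 7.15%) and 4.13% of kept promoter peaks (flanks 6.52%) at day 5. Octamers lay in 4.07% (flanks 0.852%) and 0.612% (flanks 1.10%). KLF matches, which are common in GC-rich promoters, were fewer in lost (12.4% against 25.02%) and in gained promoter peaks (13.4% against 27.8%). Other motifs ran against their distal direction. AP-1 matches lay in 6.06% of gained (flanks 2.70%) and 2.34% of kept promoter peaks (flanks 3.26%) at day 5. TEAD matches lay in 4.17% (flanks 3.74%) and 1.596% (flanks 3.31%). In MEFs, SOX matches lay in 5.73% of lost (flanks 6.56%) and 3.97% of kept promoter peaks (flanks 6.46%). CTCF matches lay in 1.25% of lost and 0.475% of kept ones, so that 48.3% of MEF promoter peaks with a CTCF match were lost, against 26.0% without. Kept promoter peaks lay below their flanks for AP-1, TEAD, SOX and octamer matches, and lost ones for SOX. A higher share than in kept promoter peaks is thus not by itself an excess over nearby sequence. Over all MEF sites, CTCF matches differed by -0.00853 points between lost and kept.

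The lists from day 10 and from ESCs were used to see how the sites of the first 5 days fared later. Lost sites rarely had a later peak. Of all lost sites 8.70% overlapped a day 10 peak and 11.7% an ESC peak, and 83.4% overlapped neither, whereas kept MEF sites overlapped day 10 peaks in 88.8% and ESC peaks in 73.7% of cases. The differences were -80.1 points (-80.6 to -79.6) for day 10 and -62.0 points (-62.7 to -61.3) for ESCs. Gained sites were more often present at day 10 than in ESCs, at 58.4% against 18.4%. Of the gained sites 44.4% had a day 10 peak and no ESC peak, 14.0% had both, 4.33% had an ESC peak only and 37.3% had neither. Compared with kept day 5 sites the difference was -30.4 points (-31.3 to -29.5) at day 10 and -54.8 points (-55.6 to -53.9) in ESCs.

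Promoters and distal sites differed in these later shares. Lost promoter peaks overlapped an ESC peak in 31.5% and a day 10 peak in 23.9% of cases, and lost distal peaks in 8.25% and 6.11%. Gained promoter peaks were present in ESCs in 29.2% and at day 10 in 67.0%, and gained distal peaks in 16.9% and 57.0%. Among kept distal day 5 peaks 74.2% were present at day 10 and 40.3% in ESCs. Peak score went with persistence of the gained distal sites, as 83.2% of the highest of 3 score classes were present at day 10, 58.2% of the middle and 37.8% of the lowest class. Their presence in ESCs changed less, from 20.8% to 15.9% and 14.9%. For lost distal sites the day 10 share was low in every score class, from 7.51% to 5.10%.

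**Figure D4:**
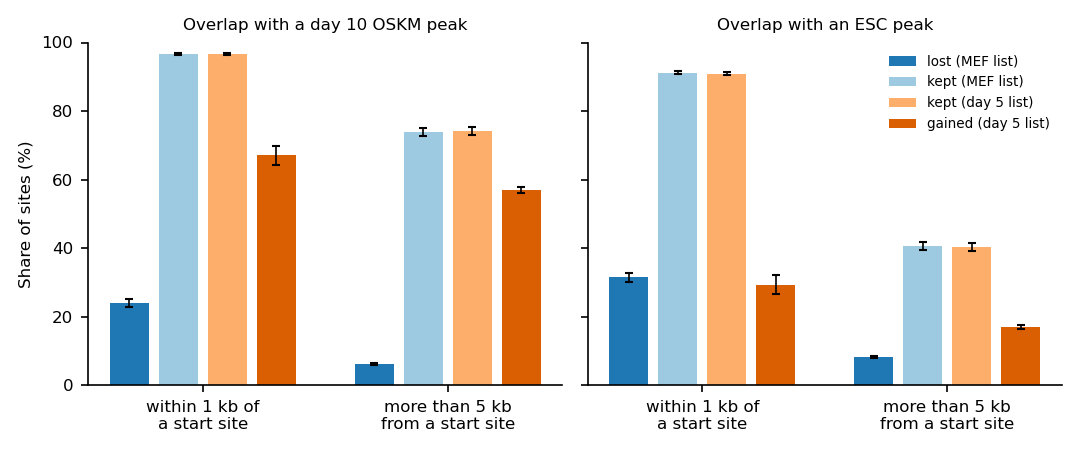
Share of lost, kept and gained sites, in %, that overlapped a peak at OSKM day 10 (left) or in ESCs (right), for promoter and distal sites. Error bars are 95% Wilson intervals; gained distal sites stood at 57.0% at day 10 and 16.9% in ESCs, and lost distal sites at 6.11% and 8.25%.

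The motif of a site went with its later state. Gained distal sites with a KLF match were present at day 10 in 67.1% of cases against 55.9% without a match, a difference of 11.2 points (8.49 to 13.9), and in ESCs in 22.1% against 16.3%. Those with a SOX match were present in ESCs in 23.1% against 15.5%, a difference of 7.63 points (5.79 to 9.55), and differed by 2.66 points at day 10. An octamer match went with a higher day 10 share, 61.2% against 56.9%, but not with a called difference in ESCs (0.10 points, -2.93 to 3.59). Gained sites with an AP-1 match were the less lasting ones, at 48.9% against 57.7% at day 10. Among lost distal sites, those with a CTCF match overlapped a day 10 peak in 26.6% against 5.85% and an ESC peak in 33.7% against 7.93%. Lost sites with an AP-1 match had later peaks less often than the others, in 3.14% against 7.02% at day 10 and in 4.54% against 9.38% in ESCs.

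At the level of genes, few promoters changed. Of the 21866 protein-coding genes, 12131 had a promoter peak in both groups and 7806 in neither. Of the 13875 genes with a MEF promoter peak, 1744 had none at day 5, which is 12.6% (12.03% to 13.1%). Of the 7991 genes without a MEF promoter peak, 185 had one at day 5, which is 2.32% (2.01% to 2.67%). These shares moved with the settings. Within the higher-scoring 50% of both lists the lost share was 29.3%, and with the MEF list reduced to the size of the day 5 list 7.35% of genes lost and 6.71% gained a promoter peak, so that both shares were close. For 65 of the 1744 genes the MEF promoter peak still overlapped a day 5 peak that lay outside the 1 kb window, and so did the day 5 promoter peak of 8 of the 185 with a MEF peak. Among genes with a lost promoter 41.1% had a promoter peak at day 10 and 56.3% in ESCs, and among those with a gained promoter 67.0% and 50.3%. Of genes with a peak in neither group, 2.17% had one at day 10 and 9.25% in ESCs. When sites were given to the nearest gene within 100 kb, 10663 genes (48.8%) had at least 1 lost site and 5978 (27.3%) at least 1 gained site, and 4449 had both.

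The chosen gene groups were read against all protein-coding genes, for which 60.2% of MEF sites were lost and 35.6% of day 5 sites gained, with a median of 0 lost and 0 gained sites per gene. No group was tested against others, and a share close to these values says nothing particular about a group. The values mix promoter and distal peaks, which over the whole MEF list were lost at 26.1% and 82.7%. The part of that mix in the share of a group was not tested. Collagen and matrix genes had lost 107 of 139 MEF sites (76.98%) and had a median of 4 lost sites per gene. TGF-beta pathway genes had lost 93 of 128 (72.7%), fibroblast transcription factors 79 of 118 (66.9%) and genes of the contractile cytoskeleton 45 of 69 (65.2%). A promoter peak in both groups was found for all 15 TGF-beta genes, 17 of 20 fibroblast factors, 15 of 20 matrix genes and 12 of 14 contractile genes. Of those open in MEFs, 0 of 15, 2 of 19, 4 of 19 and 1 of 13 had lost the promoter peak. Over all genes open in MEFs 12.6% had lost it, so a kept promoter was the usual state and not particular to these groups. Gained sites were few around contractile genes, at 3 of 28 day 5 sites (10.7%), and around genes of AP-1 subunits, at 3 of 32 (9.38%). The AP-1 genes were also among those with the smallest loss, 22 of 50 sites (44.0%), like the ribosomal protein genes with 18 of 39 (46.2%). TEAD and YAP pathway genes were at 59.7% lost and 33.3% gained. Some of these values changed when only sites within 20 kb were counted, where 47.4% of MEF sites of all genes were lost. Fibroblast transcription factors then stood below all genes at 42.3%, whereas TEAD and YAP genes stood above at 57.9%. Matrix genes at 62.3%, TGF-beta genes at 61.8% and contractile genes at 54.8% remained above all genes, and AP-1 genes at 21.9% and ribosomal protein genes at 42.9% below. Of the 14 groups 10 lay above all genes at 100 kb and 9 at 20 kb.

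The largest gained shares were those of endothelial markers (12 of 20 day 5 sites), pluripotency genes and epithelial genes. Gained sites made up 10 of 20 day 5 sites of the epithelial genes (50.0%) and 18 of 33 of the pluripotency genes (54.5%), while MEF sites near them were lost at 67.7% and 68.8%. Within 20 kb the lost share was 68.2% for epithelial genes and, below all genes, 45.5% for pluripotency genes. Their promoters were less often open in both groups, with 8 of 20 epithelial and 10 of 24 pluripotency genes. Of genes closed in MEFs, 2 of 6 epithelial and 0 of 10 pluripotency genes gained a promoter peak, against 2.32% of all such genes. Of those open in MEFs, 6 of 14 epithelial and 4 of 14 pluripotency genes lost theirs, against 12.6% of all such genes. In ESCs, promoter peaks were listed for 16 epithelial and 21 pluripotency genes, compared with 10 of each that had one at day 5. Neural and developmental transcription factors had 38 of 57 sites lost (66.7%) and 16 of 34 gained (47.1%), and Wnt pathway genes 68 of 97 (70.1%) and 22 of 52 (42.3%). Of those open in MEFs, 6 of 16 neural and 4 of 16 Wnt genes lost the promoter peak, against 12.6% of all such genes. Within 20 kb lay 2 of the 16 gained sites of the neural group, against 4465 of 10043 over all protein-coding genes. Markers of other cell types served as a check of the labels. Of 8 endothelial genes 5 and of 8 blood and macrophage genes 6 had no promoter peak in either group, against 35.7% of all protein-coding genes. Kdr, Tek, Erg and Csf1r had one in both, and Tal1 had one in MEFs and none at day 5. The sites near the endothelial and the blood and macrophage genes, few in number, were lost at 33 of 41 (80.5%) and 11 of 14 (78.6%). They were gained at 12 of 20 (60.0%) and 2 of 5.

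**Figure D5:**
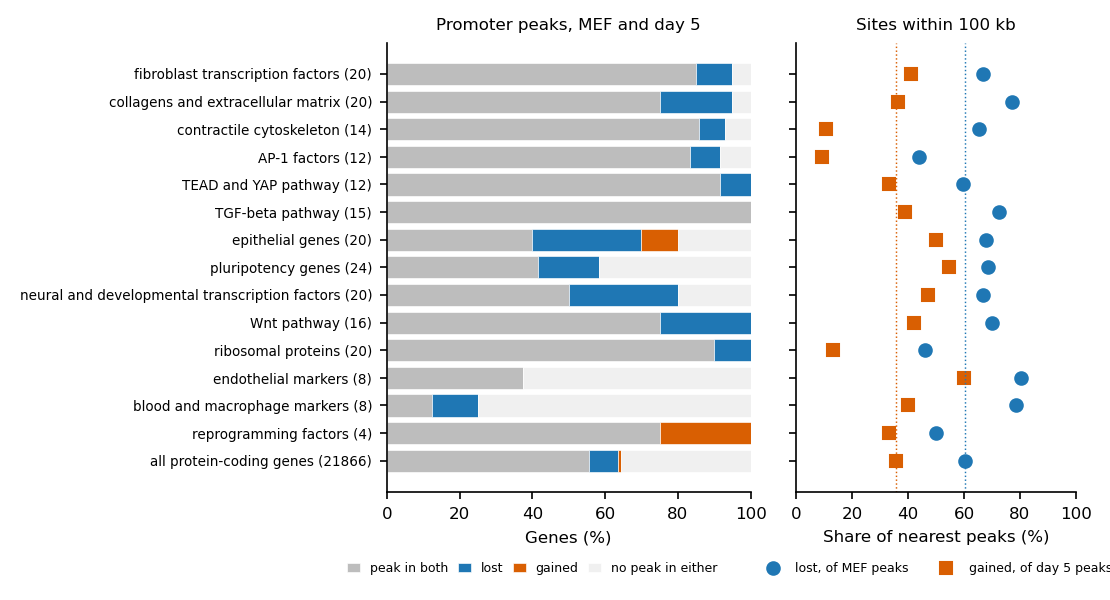
Left, share of genes in each group, in %, by promoter peak in MEFs and at day 5, with the number of genes in brackets. Right, share of MEF sites lost (blue circles) and of day 5 sites gained (orange squares) among sites nearest to these genes within 100 kb, with dotted lines at the values of all protein-coding genes (60.2% and 35.6%); collagen and matrix genes stood at 76.98% lost and pluripotency genes at 54.5% gained.

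Some fibroblast genes lost most of their MEF sites and kept the promoter. This was also the general pattern, since 82.7% of all distal and 26.1% of all promoter MEF peaks were lost. Col5a1, a fibrillar collagen gene, lost 15 of 17 MEF sites and gained none, and Smad3, the signal transducer of TGF-beta, lost 15 of 17 and gained 1. Prrx1, a mesenchymal homeobox factor, lost 9 of 10 MEF sites and gained 5 of its 6 day 5 sites. In these 3 genes the promoter had a peak in both groups. Runx1 lost 13 of 18 and gained 4 of 9, Ltbp1, which encodes a TGF-beta binding protein, lost 19 of 25, and Zeb1, a repressor of epithelial genes, lost 7 of 8 and gained none. A smaller set lost the promoter too. Postn, which encodes the matrix protein periostin, lost all 8 of its MEF sites, among them the promoter peak at chr3:54360539-54361144, and none of the 8 overlapped a day 10 or an ESC peak. Col6a3 lost 6 of 6, Meox1 3 of 3, and Bgn, which encodes biglycan, and Cnn1, which encodes calponin, 2 of 2 each, with no promoter peak for any of the 4 at day 10 or in ESCs. Prrx2 and Loxl1 lost the promoter peak too, but later lists held one. Prrx2 had a promoter peak at day 10 and in ESCs, and Loxl1 in ESCs but not at day 10. Ankrd1, a target of YAP, lost its promoter peak at chr19:36119767-36120337 and 5 of 7 sites in all, and had 3 gained sites.

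Genes of AP-1 subunits and their partners kept 28 of 50 MEF sites, although the AP-1 motif was the commonest in lost sites. Fosb kept 5 of 6 MEF sites, Fos 4 of 8, Atf3 4 of 5 and Mafk 3 of 4, whereas Jun lost 6 of 8 and Fosl2 6 of 9. Promoter peaks in both groups were listed for 10 of these 12 genes. Junb was counted as a lost promoter although its 4012 bp MEF peak at chr8:84976316-84980327 was kept, because the 2 day 5 peaks inside it lay 1.00 and 1.03 kb from the start site. Here a broad peak had become 2 narrower ones.

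Among epithelial genes, the promoter of Cdh1 opened. Cdh1, which encodes E-cadherin, had 2 lost intronic sites and 2 gained ones. Its gained promoter peak at chr8:106603294-106603771 overlapped an ESC peak and no day 10 peak, and it stood low in the list, with rank 30221 of 36219. The other gained Cdh1 site, in an intron 28.4 kb from the start at chr8:106631757-106632075, held a SOX match and overlapped a day 10 peak. Krt8, which encodes a simple-epithelium keratin, was counted as open in both groups, yet its MEF promoter peak was lost and another, 0.944 kb from the start with a KLF match, was gained. By contrast, Epcam, Cldn4, Krt19, Grhl2, Ovol1 and Tjp3 had a promoter peak in MEFs and none at day 5. Of these 6 promoters 4 were open at day 10 and 5 in ESCs. At Epcam the lost promoter peak, chr17:87636042-87636871, had rank 39741 of 56514, while the gained site 32.3 kb away, shown above, had rank 1866 at day 5.

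Some pluripotency genes gained distal sites. None of the 24 gained a promoter peak, but over all genes closed in MEFs only 2.32% did, so this says nothing particular about the group. Tfcp2l1, a factor of the naive state, had 4 gained sites among 5 at day 5, of which 3 also overlapped ESC peaks, and kept its promoter peak. Tdh, which encodes threonine dehydrogenase, had no MEF peak and gained an intronic site 8.21 kb from its start at chr14:63500157-63500881, with TEAD, octamer and SOX matches and with peaks at day 10 and in ESCs. Zfp42, which encodes REX1, gained 2 distal sites without an ESC peak, and its promoter had a peak only in ESCs among the 4 lists. Near Nanog 2 of 3 MEF sites were kept, and the other, chr6:122689336-122690210 with AP-1 and KLF matches and rank 975, was lost at day 5, absent at day 10 and present in ESCs. Esrrb, a factor of the late phase, lost all 6 MEF sites and gained none, and 4 of the 6 overlapped an ESC peak although none overlapped a day 10 peak. Sall4, Nr5a2 and Fgf4 lost promoter peaks as well, and all 3 had one in ESCs. Otx2, a factor of the primed state and of the forebrain, lost both MEF sites and gained 3 distal ones, of which 1 at 62.1 kb held an octamer and a SOX match.

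Peaks at the genes of the reprogramming factors need care, because the day 5 cells carried the factors as retroviral cDNAs and both groups carried Oct4 sequence in the reporter. At day 5 the Klf4 and Sox2 peaks with the best scores had their midpoints in exons, with rank 40 and fold enrichment of 4.92 for Klf4 and rank 55 and 6.32 for Sox2. In MEFs the overlapping peaks had ranks 24752 and 38227 and fold enrichments of 2.36 and 2.65. The gained promoter of Pou5f1 was an exonic peak 0.417 kb from the start site at chr17:35509238-35509777. The part of vector and reporter DNA in these peaks was not tested. Myc kept 4 of 7 MEF sites and gained none.

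Some genes had many exchanged sites, in raw counts that were not set against gene length. Over all protein-coding genes 60.2% of MEF sites were lost and 35.6% of day 5 sites gained. Pde4d, which encodes a cAMP phosphodiesterase and spans chr13:108449948-109953461, lost 30 of 46 MEF sites and gained 13 of 29 day 5 sites. It was among the first 10 genes on both counts. Foxp1, a forkhead factor, lost 25 of 31, Palld, an actin-bundling protein gene, 21 of 24, Rbfox1, a splicing regulator, 21 of 22, Col4a1, a basement membrane collagen gene, 19 of 22 and Fyn, a SRC family kinase gene, 19 of 20. Ank3, Ltbp1, Tmcc3 and Arhgap26 completed the first 10 with 18 to 20 lost sites each. Most of the first 10 promoters stayed open, the exception being that of Rbfox1. Many gained sites were also found near Etl4 (16 of 20 day 5 sites), and near Magi2, Zbtb20, Mllt3, Auts2, Nckap5, Nrxn3 and Pam with 10 to 12 each. Nrxn3 had 10 gained among 11 day 5 sites, and each of these 8 genes had a promoter peak in both groups.

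Every nearest MEF site was lost for 3283 of the 10663 genes with at least 1 lost site, and 9 of them had 10 or more. With 60.2% of MEF sites lost over all genes, a gene with few sites can readily lose all of them. The potassium channel gene Kcnma1 led with 15 sites, followed by Dgki, Lmntd1 and Slit3, which encodes a guidance ligand, with 13 each, Rmdn2 with 12, and Ccdc162, Fgf1 and Rbm47 with 10 each. Kcnma1, Dgki, Slit3, Rmdn2, Rbm47 and Fgf1, which encodes a fibroblast growth factor, also lost the promoter peak. All of these but Kcnma1 had a promoter peak at day 10. In the opposite direction 710 of the 21866 protein-coding genes had no MEF site and at least 1 day 5 site. Slc15a5 led with 6 gained sites, followed by the aldehyde dehydrogenase gene Aldh3a1 with 5, and Cntn6, Crb1, D630036H23Rik, Impg1, Kynu, Mndal and Spata48 with 4 each.

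The highest-scoring single sites, leaving out those made up mostly of repeats, differed in their later state. The 5 highest-scoring lost sites were nearest to Camk1g, Btbd9, Pdia5, Krt23 and Prr5l, with fold enrichments from 4.87 near Btbd9 to 8.80 near Krt23. None of the 5 had a day 10 peak, and those near Btbd9 and Pdia5 had an ESC peak. The highest-scoring gained site, a 287 bp peak in an intron of the predicted gene Gm10801 at chr2:98662527-98662813, had a day 10 and an ESC peak but no MEF peak. The next gained sites, nearest to Cdh8, Gm9008 and Ddx18 and between genes, and to Zkscan2 in an intron, each had a day 10 peak and no ESC peak. The highest-scoring kept sites were near Limd1, Txndc11, Gm8797 and Filip1l and were present in all 4 lists. In MEFs they were narrow peaks of 396 to 478 bp, with fold enrichments from 10.9 to 15.3. Whether these kept peaks and the gained peak in Gm10801 reflect open chromatin or errors of read mapping was not tested.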

How the data were processed

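ATAC-seq peak lists of MEFs and OSKM day 5, with those of OSKM day 10 and ESCs for later states, were used as the authors deposited them, 1 list per group of 2 libraries. Per the labels, reads were mapped to mm10 with Bowtie2, low-quality, multiply mapped and mitochondrial reads were removed; the submitters' processing notes give Bowtie2 2.2.0, and the methods of the study name another version and mapping-quality limit. The peak caller and the way in which replicate lists were merged are not given in the sources used here. Peak names refer to replicate 1, so the deposited values belong to the whole replicate 1 peak. The deposited columns hold a peak score, a fold enrichment over background and a −log10 q-value (with a −log10 p not used here) set by the authors' caller. They were used to rank peaks within a list, are not normalized between lists, and are given side by side for 2 lists only at Klf4, Sox2 and Epcam. Read depth is unknown, and intervals cover counting error only. The number of columns belonging to samples of other series was 0.

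Peaks were compared by an overlap of 1 bp. Gene positions were taken from release 21 of the GENCODE mouse annotation, and sites were given to the nearest protein-coding gene within 100 kb, which placed 80.5% of MEF and 77.9% of day 5 peaks, with 16 peaks tied between genes. Motif letters were searched on both strands in the central 200 bp, with windows 1 kb to each side as flanks, and besides those spelled out above CRE (TGACGTCA), RUNX (TGTGGTTA or TGTGGTTT), E-box (CACGTG), ESRRB (TCAAGGTCA), CTCF and SOX-OCT were among the 11 motifs. Overlapping motifs were counted separately. Shares have Wilson and differences Newcombe intervals, computed with Python 3.11.15, numpy 2.4.6 and scipy 1.17.1, drawn with matplotlib 3.10.9, and tested on simulated data. No p-value was computed. Named genes are all members of the 14 gene lists, the first 10 genes for lost sites, gained sites, all MEF sites lost, and day 5 sites without MEF sites, and the nearest genes of the 5 highest-scoring lost, kept and gained sites under 50% repeat, of which some are not reported here. Sequences are, per motif, the highest-scoring site per listed gene, up to 4, outside chromosome 18 and under 50% repeat, without windows that overlap exons. The comparison, gene lists and motifs were chosen with earlier results of these data known. RefSeq promoters were used for motif background only. Alternatives concerned overlap, score, list size, repeats, sex chromosomes, windows and, after seeing the data, GC content and score classes.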

Additional observations from a re-analysis of the deposited data

How the results depend on the processing

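No paired analysis was possible because the replicates of each group were merged in single peak lists, and for the same reason no replicate could be left out. Over 13 differences between classes, 90 of 94 planned values kept their direction and their side of 0. The exceptions were the AP-1 and TEAD excess of lost sites when the whole peak was searched (1.14 and 0.180 points) and, with all sites in place of distal ones, CTCF in lost sites (-0.00853) and AP-1 in gained sites (-0.312). Of 42 values within GC and score classes, chosen after seeing the data, 33 kept both. KLF in gained sites turned to 1.07, 4.38 and 5.91 points in the 3 GC classes and was -0.829 in the lowest of 3 score classes, and AP-1 in lost sites turned to -0.904 below 40% GC. Below 40% GC, TEAD (1.22), CTCF (-0.0180) and SOX (2.03) were no longer called, nor was TEAD at 40 to 50% (1.25). The lost share of MEF peaks was 75.2% with an overlap of at least 50% of both peaks, 64.6% with peaks within 400 bp counted as kept, 64.6% with the higher-scoring 50% of both lists and 52.7% with the MEF list reduced to the size of the day 5 list. The gained share was 61.4%, 44.5%, 44.7% and 52.4% under these settings and 43.7% without peaks in repeats. The share of genes losing the promoter peak was 29.3% with the higher-scoring 50%, 7.35% with the reduced MEF list and 14.1% within 5 kb, and that of genes gaining one was 6.71% with the reduced list and 5.11% within 5 kb. With sites given to genes within 20 kb, 9 of 14 gene lists had a lost share above that of all genes, against 10 at 100 kb. Gene promoter shares do not use the overlap of peaks and have no value under those alternatives. The causes of these shifts were not tested, and unknown read depth limits all comparisons of list size.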
